A study of Mus musculus with 6 samples.

Results

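Slc22 organic ion transporters were examined in the liver as 9 genes taken by name, of 18 Slc22 genes and 21528 genes in all listed in the RNA-Seq tables: Slc22a5, Slc22a7, Slc22a18, Slc22a23, Slc22a26, Slc22a27, Slc22a28, Slc22a29 and Slc22a30. The genes were chosen by name with their FPKM in these same WT and TRIM24C52/55A libraries known from earlier results, so their differences between the genotypes, fold changes and calls from the fit over all genes included, are a description and support nothing further. In the TRIM24C52/55A liver Slc22a27 and Slc22a29 fell to 11.8% and 17.2% of their WT means and Slc22a26 to 13.2%, while Slc22a28 and Slc22a30 were 2.04 and 1.5 times their WT means. All 5 of these genes lie side by side on chromosome 19. The other 4 members, on chromosomes 7, 11, 13 and 17, differed by less than 1.5-fold.

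RNA was taken from the liver of mice labelled C57BL/6, of 5 months of age that had been fed an HFD, with 60% fat, for 3 months, and 3 libraries were made from WT mice and 3 from TRIM24C52/55A mice. TRIM24C52/55A is a knockin made with CRISPR/Cas9 on C57Bl/6J in which Cys52 and Cys55 of TRIM24 are replaced by alanine in the whole animal and not in hepatocytes alone. Heterozygous carriers were bred with each other, and the WT controls are littermates of the homozygous animals. No group on a chow diet is among these libraries, so every comparison holds for mice on the HFD, and the labels give no sex, while the study names males for other assays of the liver of these mice on the HFD.

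Slc22 proteins are membrane carriers that move organic cations, anions and zwitterions such as carnitine across the plasma membrane. In the liver they stand mostly on the blood side of the hepatocyte and serve the uptake and release of drugs, vitamins, steroid conjugates and metabolites. The family is divided into organic cation transporters (OCT), carnitine and zwitterion transporters (OCTN), organic anion transporters (OAT) and less studied members. The OAT branch holds a group of genes on mouse chromosome 19 that is expanded in rodents, and for most of these genes the substrate is little known.

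The 5 chromosome 19 members lie on the minus strand in the order Slc22a26 (chr19:7781041-7802667), Slc22a27 (chr19:7864388-7966027), Slc22a28 (chr19:8062209-8131982), Slc22a29 (chr19:8160165-8218900) and Slc22a30 (chr19:8335371-8405111), in coordinates of GRCm38 as the files give them, with the first base counted from 1. Gaps of 61720, 96181, 28182 and 116470 bp separate them, and no other gene listed in the files lies between them. They form pairs by sequence and not by position. Over the aligned coding bases Slc22a28 and Slc22a30 were 98.8% identical and Slc22a27 and Slc22a29 were 97.3% identical, although neither pair is adjacent. Between the pairs identity was 91.7% to 92.3%, and Slc22a26 was 73.7% to 74.2% identical to the other 4.

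Of 1656 coding positions aligned in all 4 paired genes, 1494 were the same in all, and at 97 the members of each pair had the same base and the pairs had different ones. Slc22a27 and Slc22a29 differed from each other at 45 positions, and Slc22a28 and Slc22a30 at 20. The stretch of 90 coding bases within 1 exon that holds the most pair-defining positions, 16, is shown because it is where reads can best tell the pair that was lower from the pair that was higher. It runs from coding base 952 to 1041 in exon 7 of Slc22a27 (chr19:7880190-7880279) and in exon 6 of Slc22a29 (chr19:8169956-8170045), and from coding base 955 to 1044 in exon 6 of Slc22a28 (chr19:8071839-8071928) and of Slc22a30 (chr19:8345347-8345436). The bases are those of the GENCODE M21 transcripts on GRCm38, read 5′ to 3′ on the minus strand, and capitals mark the pair-defining positions.
Slc22a27: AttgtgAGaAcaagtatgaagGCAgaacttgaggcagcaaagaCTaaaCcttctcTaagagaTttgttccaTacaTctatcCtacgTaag
Slc22a29: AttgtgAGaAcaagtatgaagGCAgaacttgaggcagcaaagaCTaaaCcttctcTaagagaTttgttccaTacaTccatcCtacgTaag
Slc22a28: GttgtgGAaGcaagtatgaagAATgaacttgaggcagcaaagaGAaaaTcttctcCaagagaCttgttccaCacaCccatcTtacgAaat
Slc22a30: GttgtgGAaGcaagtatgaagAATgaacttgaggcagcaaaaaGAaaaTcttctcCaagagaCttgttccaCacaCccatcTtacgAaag

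**Figure D1:**
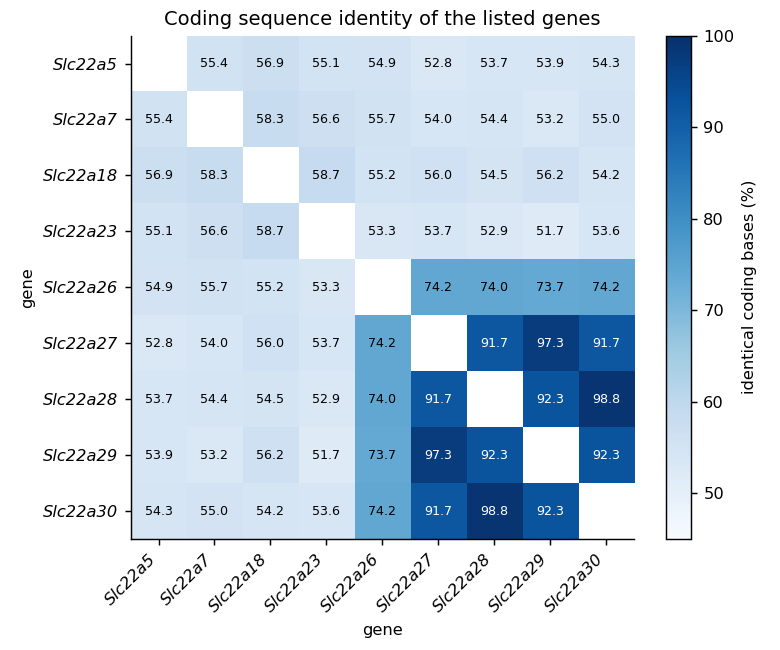
Percent of identical coding bases between the 9 members, 1 row and 1 column per gene, darker where identity is higher. Slc22a28 with Slc22a30 (98.8%) and Slc22a27 with Slc22a29 (97.3%) stand out, and identity between genes outside chromosome 19, or between them and the chromosome 19 genes, lay between 51.7% and 58.7%.

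The sequences before the start sites repeat only part of this pairing. The 250 bases upstream of each RefSeq start site (GRCm38.p6, minus strand, 5′ to 3′) are shown for the chromosome 19 genes because the 5 members that differ most between the genotypes are here. For Slc22a28 (chr19:8131983-8132232) and Slc22a30 (chr19:8405106-8405355) capitals mark the bases that differ or have no partner in the alignment of the pair, and 238 of 244 aligned bases were identical.
Slc22a28: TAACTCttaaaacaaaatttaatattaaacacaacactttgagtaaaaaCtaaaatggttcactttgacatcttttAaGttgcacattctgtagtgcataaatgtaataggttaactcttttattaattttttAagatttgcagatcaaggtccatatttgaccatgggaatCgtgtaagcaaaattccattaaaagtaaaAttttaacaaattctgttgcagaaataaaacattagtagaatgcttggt
Slc22a30: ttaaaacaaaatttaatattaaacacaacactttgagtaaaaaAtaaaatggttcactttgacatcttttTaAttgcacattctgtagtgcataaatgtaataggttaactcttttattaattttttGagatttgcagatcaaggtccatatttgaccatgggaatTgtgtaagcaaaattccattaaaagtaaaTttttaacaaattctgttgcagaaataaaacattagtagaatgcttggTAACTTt

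Upstream of the pair that was lower, the sequences were not alike. Slc22a29 (chr19:8218901-8219150) was 78.3% identical to Slc22a30 and 73.6% to Slc22a28 but 48.7% to Slc22a27 (chr19:7966028-7966277), its partner in coding sequence. Slc22a26 (chr19:7802668-7802917) was 53.4% to 61.5% identical to the other 4. Capitals mark a motif match in Slc22a26.
Slc22a29: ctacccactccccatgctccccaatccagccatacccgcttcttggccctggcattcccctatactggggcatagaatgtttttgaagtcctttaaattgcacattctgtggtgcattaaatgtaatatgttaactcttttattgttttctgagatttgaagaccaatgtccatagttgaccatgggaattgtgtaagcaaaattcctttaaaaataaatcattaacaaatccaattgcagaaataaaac
Slc22a27: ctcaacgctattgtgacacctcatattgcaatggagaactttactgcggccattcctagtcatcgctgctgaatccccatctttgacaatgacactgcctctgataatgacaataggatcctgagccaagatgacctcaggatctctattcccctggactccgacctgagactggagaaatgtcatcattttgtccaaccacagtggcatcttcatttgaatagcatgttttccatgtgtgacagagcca
Slc22a26: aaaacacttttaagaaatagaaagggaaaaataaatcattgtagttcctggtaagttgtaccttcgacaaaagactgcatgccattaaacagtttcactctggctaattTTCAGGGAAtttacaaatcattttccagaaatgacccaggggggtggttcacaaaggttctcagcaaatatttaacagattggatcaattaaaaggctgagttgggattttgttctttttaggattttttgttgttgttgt

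A window of 300 bases, from 250 before to 50 after the start site, was found in RefSeq for 8 of the 9 members (all but Slc22a7) and searched on both strands for motifs, of which 2, neither containing the other, are reported here. TTCNNNGAA, the core bound by STAT factors, was found in 8.30% of 32851 promoters of this length and once among the members, with its first base at -141 from the start of Slc22a26. CAAAGTCCA, an HNF4A motif, was found in 0.475% of promoters and in no member. Such matches describe letters in a window and were not tested as binding sites.

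The deposited values are FPKM, in which the fragments of a gene are divided by the length of its transcript and by the size of the library, so that levels may be compared between genes of different length. By an estimate, 1 fragment per kilobase was worth 0.0598 to 0.0637 FPKM, which corresponds to 15.7 M to 16.7 M fragments per library. The estimate was sought in the same preset range of values for every library. Depths far from these could not have shown, so like depth is not established by it. Trim24 itself had 5.54, 4.85 and 5.96 FPKM in the WT libraries (replicates 1 to 3) and 6.15, 4.31 and 8.46 FPKM in the TRIM24C52/55A libraries, and since the knockin replaces codons this level does not check the genotype. Hepatocyte markers summed to 20912 to 21784 FPKM in WT and 20153 to 22293 FPKM in TRIM24C52/55A livers (9 of 10 markers listed), and 3 of 8 kidney markers were listed, with a sum of at most 0.264 FPKM in any library. Adipocyte markers summed to 32.8 to 45.4 FPKM in WT and 7.32 to 67.9 FPKM in TRIM24C52/55A libraries, with 6 of 8 highest in TRIM24C52/55A replicate 2. In that library Adipoq, Plin1 and Lep stood at 4.55, 3.32 and 3.98 FPKM, against at most 0.127 FPKM elsewhere. Marker sums in WT and TRIM24C52/55A libraries were 152 to 200 and 132 to 178 FPKM for Kupffer cells, 89.4 to 94.9 and 79.1 to 88.8 FPKM for endothelial cells, 104 to 114 and 101 to 130 FPKM for stellate cells, and 28.5 to 53.8 and 21.8 to 34.0 FPKM for cholangiocytes. In RNA of whole liver, fewer cells of a type and less RNA per cell cannot be told apart.

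The 12225 genes that averaged 0.5 FPKM or more over the 6 libraries were fitted together with limma on log2(FPKM + 1), and a gene is said here to be called where its adjusted p (Benjamini-Hochberg over all genes fitted) was under 0.05. Log2 fold changes are on that scale, TRIM24C52/55A minus WT, so for genes near or under 1 FPKM they are smaller than the ratio of the FPKM. Of the 9 members, which all passed the filter on low values, 5 were called, against 7.72% of all genes tested. Of these, 2 were called higher, against 1.64% of all genes, and 3 were called lower, against 6.09%. Every TRIM24C52/55A library was above every WT library for 2 members (6.31% of all genes) and below for 4 (22.5%), so that the groups did not overlap for 6 of 9 (28.9%). The rule chose the members with this contrast known, so nothing is read from these counts. The median log2 fold change was -0.32 over the members and -0.08 over all genes tested, and that of the members was -0.18 without WT replicate 3 and -0.17 with quantile scaling.

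**Figure D2:**
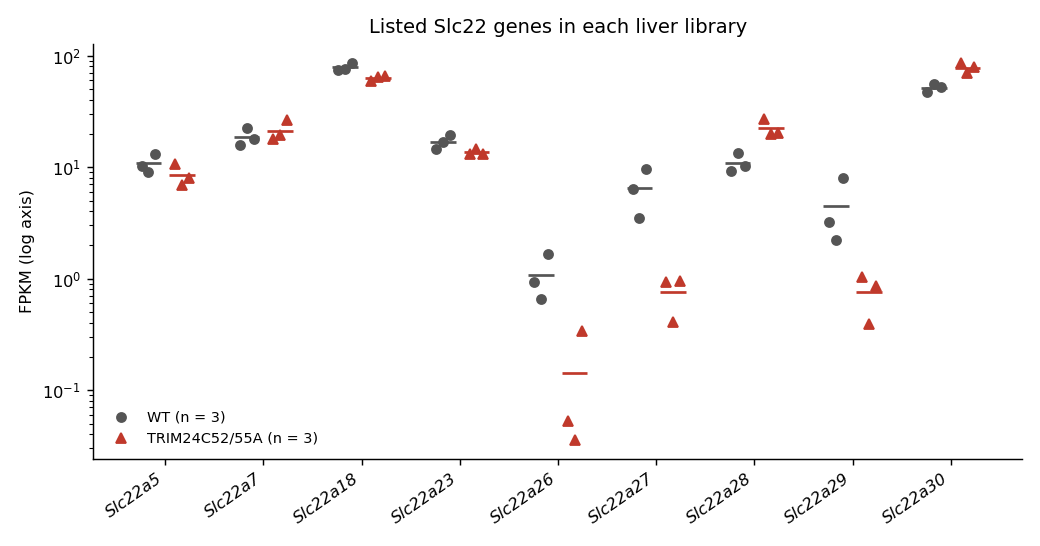
FPKM of the 9 members in each library on a log axis, with circles for WT (n = 3), triangles for TRIM24C52/55A (n = 3) and a bar at each group mean. The groups are separate for Slc22a18, Slc22a26, Slc22a27 and Slc22a29, which are lower, and for Slc22a28 and Slc22a30, which are higher, and they overlap for Slc22a5, Slc22a7 and Slc22a23.

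Slc22a5, on chromosome 11 (chr11:53864542-53891660, minus strand), encodes OCTN2, the sodium-dependent carrier that brings carnitine into cells. It had 10.2, 8.98 and 13.2 FPKM in the WT libraries (replicates 1 to 3) and 10.7, 6.85 and 7.96 FPKM in the TRIM24C52/55A libraries. The groups overlapped, since TRIM24C52/55A replicate 1 was above WT replicates 1 and 2. The means were 10.8 ± 2.18 and 8.49 ± 1.96 FPKM (SD, n = 3 each), with a log2 fold change of -0.32 (standard error 0.17, 95% confidence interval -0.72 to 0.08). Without WT replicate 3 it was -0.18 and without TRIM24C52/55A replicate 2 it was -0.19. Of its 50-base stretches, 27.1% also occur in another gene, mostly in Slc22a21 on the same chromosome, which had a mean of 0.493 FPKM in WT and 0.287 FPKM in TRIM24C52/55A libraries.

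Carnitine carries long-chain fatty acids into mitochondria, and the genes that make and use it were followed as a list of 12, of which 10 were tested. None was called higher (1.64% of all genes) and 4 were called lower (6.09% of all genes), with a median log2 fold change of -0.31 against -0.08 for all genes tested. Crat, carnitine acetyltransferase, fell from 45.1 ± 9.62 to 22.2 ± 4.46 FPKM (SD, n = 3 each), with a log2 fold change of -0.98 (limma, adjusted p = 0.0181). Slc25a20, the carnitine-acylcarnitine translocase of the inner mitochondrial membrane, fell from 91.8 ± 7.89 to 62.8 ± 5.12 FPKM (log2 fold change -0.54, limma adjusted p = 0.0142, n = 3 each). Cpt1a, the rate-limiting enzyme of mitochondrial fatty acid entry, fell from 121 ± 12.8 to 84.5 ± 1.94 FPKM (log2 fold change -0.50, limma adjusted p = 0.0170, n = 3 each), and its muscle counterpart Cpt1b fell from 1.21 ± 0.133 to 0.531 ± 0.228 FPKM (log2 fold change -0.54, limma adjusted p = 0.0463). Without WT replicate 3 none of the list was called (2.46% of all genes in that setting), and 1 was called without WT replicate 1 (2.56%) or without TRIM24C52/55A replicate 1 (2.42%).

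Slc22a7, on chromosome 17 (chr17:46432185-46438477, minus strand), encodes OAT2, a carrier of organic anions of the hepatocyte. Its FPKM was 15.8, 22.6 and 17.8 in WT replicates 1 to 3 and 17.9, 19.2 and 26.7 in TRIM24C52/55A replicates 1 to 3. The groups overlapped, and the higher TRIM24C52/55A mean rested on the highest value, in TRIM24C52/55A replicate 3. With that library left out, the means were 18.7 FPKM in WT and 18.6 FPKM in TRIM24C52/55A livers. Without that library the log2 fold change was 0.0016, and with it 0.17 (standard error 0.17, 95% confidence interval -0.22 to 0.56). Without WT replicate 1 it was 0.059, without WT replicate 2 0.30 and without TRIM24C52/55A replicate 1 0.28. No 50-base stretch of its transcript, or of those of Slc22a18 and Slc22a23, occurs in another gene.

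Slc22a18, on chromosome 7 (chr7:143473736-143499334, plus strand), is an imprinted gene of the Cdkn1c domain whose product is a transporter-like protein of little known function. WT replicates 1 to 3 had 74.2, 75.8 and 86.2 FPKM, and TRIM24C52/55A replicates 1 to 3 had 59.5, 63.9 and 65.2 FPKM. All TRIM24C52/55A libraries were lower than all WT libraries, by a smaller margin than in the chromosome 19 genes. The mean was 78.7 ± 6.50 FPKM in WT and 62.9 ± 3.02 FPKM in TRIM24C52/55A livers (SD, n = 3 each), and the log2 fold change was -0.32 (standard error 0.08). It was not called, although with each library rescaled to TPM (-0.38) it was, and with quantile scaling the value was -0.17. Its nearest listed neighbours, Gm44732 and Phlda2, had under 1 FPKM in every library and were not tested.

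Slc22a23, on chromosome 13 (chr13:34179158-34345182, minus strand), encodes an orphan transporter. It stood at 14.4, 17.0 and 19.4 FPKM in the WT libraries (replicates 1 to 3) and at 13.1, 14.6 and 13.2 FPKM in the TRIM24C52/55A libraries. WT replicate 1 lay just below TRIM24C52/55A replicate 2, so the groups overlapped. The log2 fold change was -0.28 (standard error 0.11), and the gene was not called. It was -0.18 without WT replicate 3, -0.19 with median-of-ratios scaling and -0.17 with quantile scaling. Of its nearest neighbours, Pxdc1, 282657 bp away, fell from 43.8 to 26.8 FPKM (log2 fold change -0.70, limma adjusted p = 0.0319), and Psmg4, 985 bp away, had a log2 fold change of -0.38 (limma adjusted p = 0.131). Next to Slc22a5, Gm12216 had a log2 fold change of 0.10 (limma adjusted p = 0.863). The other listed neighbours of members outside the cluster or at its ends, Gm12217, Crip3, Gm5093, Gm16437 and Gm8189, had under 1 FPKM in every library and were not tested.

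On chromosome 19 the first pair, Slc22a27 and Slc22a29, was lower in the TRIM24C52/55A liver. Slc22a27 had 6.33, 3.48 and 9.68 FPKM in the WT libraries (replicates 1 to 3) and 0.928, 0.405 and 0.959 FPKM in the TRIM24C52/55A libraries. The lowest WT library was still above the highest TRIM24C52/55A library, and the WT libraries spread widely around their mean of 6.50 ± 3.10 FPKM, against 0.764 ± 0.311 FPKM in TRIM24C52/55A livers (SD, n = 3 each). The WT mean was 8.50 times the TRIM24C52/55A mean. The log2 fold change was -2.02 (standard error 0.29), the largest in size among the members, and it lay between -2.89 and -1.72 over 14 other settings.

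Slc22a29 had 3.22, 2.22 and 7.92 FPKM in the WT libraries (replicates 1 to 3) and 1.04, 0.393 and 0.861 FPKM in the TRIM24C52/55A libraries. As with its partner, WT replicate 3 was the highest and WT replicate 2 the lowest of the WT libraries, and TRIM24C52/55A replicate 2 was the lowest of all. The means were 4.45 ± 3.04 and 0.766 ± 0.335 FPKM (SD, n = 3 each), a ratio of WT to TRIM24C52/55A of 5.81 and a log2 fold change of -1.50 (standard error 0.34). Its call was lost with median-of-ratios or quantile scaling (-1.44 in both) and without the filter on low values. It was also lost when WT replicate 1 or any single TRIM24C52/55A library was left out, with log2 fold changes of -1.62 without WT replicate 1 and -1.62, -1.34 and -1.55 without TRIM24C52/55A replicates 1, 2 and 3. WT replicate 3 weighed most on the size, and without it the ratio was 3.55 and the log2 fold change -1.08. With a pseudocount of 0.1 the log2 fold change was -2.28.

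Slc22a26, next to Slc22a27 and the most distant in sequence, was the lowest of the members. Its FPKM was 0.931, 0.659 and 1.65 in WT replicates 1 to 3 and 0.0524, 0.0357 and 0.339 in TRIM24C52/55A replicates 1 to 3. WT and TRIM24C52/55A libraries did not overlap, and the WT mean, 1.08 ± 0.511 FPKM, was 7.59 times the TRIM24C52/55A mean, 0.142 ± 0.17 FPKM (SD, n = 3 each). These levels rest on few reads, an estimated 22.1 to 53.3 fragments per WT library and 1.70, 1.14 and 10.7 fragments in TRIM24C52/55A replicates 1 to 3. The gene passed the filter through the WT libraries, the group in which it is high. The log2 fold change was -0.85 (standard error 0.19), and the call was lost without the filter, without WT replicate 1 (-0.89) or 3 (-0.66) and without TRIM24C52/55A replicate 1 (-0.79) or 2 (-0.78). With a pseudocount of 0.1 it was -2.41, and without TRIM24C52/55A replicate 3 the ratio of the means was 24.5.

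The second pair, Slc22a28 and Slc22a30, was higher in the TRIM24C52/55A liver. Slc22a28 had 9.23, 13.3 and 10.3 FPKM in the WT libraries (replicates 1 to 3) and 26.8, 19.7 and 20.4 FPKM in the TRIM24C52/55A libraries. No library of one genotype came within the range of the other. The mean rose from 10.9 ± 2.13 to 22.3 ± 3.88 FPKM (SD, n = 3 each), 2.04-fold, with a log2 fold change of 0.97 (standard error 0.16). Its call was lost without the filter on low values and without WT replicate 3 (0.93).

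Slc22a30, the most abundant gene of the cluster, had 47.1, 55.9 and 52.2 FPKM in the WT libraries (replicates 1 to 3) and 85.3, 69.5 and 78.6 FPKM in the TRIM24C52/55A libraries. The libraries of each genotype lay close together and apart from the other genotype, at 51.7 ± 4.39 and 77.8 ± 7.94 FPKM (SD, n = 3 each). The rise was 1.5-fold, with a log2 fold change of 0.58 (standard error 0.10). Its call was lost without the filter on low values, without WT replicate 1 (0.51) or 3 (0.59) and without TRIM24C52/55A replicate 1 (0.51).

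In WT mice, the genes of one direction also varied together from library to library. WT replicate 2 had the lowest level of Slc22a26, Slc22a27 and Slc22a29 and the highest of Slc22a28 and Slc22a30, and WT replicate 3 the highest level of the first 3 genes. Among TRIM24C52/55A libraries, replicate 2 had the lowest level of all 5 genes. This is the library with the most adipocyte marker RNA, whose part in these levels was not tested. Without it the log2 fold changes were -1.86 for Slc22a27, -1.34 for Slc22a29, -0.78 for Slc22a26, 1.05 for Slc22a28 and 0.66 for Slc22a30, and 3 of the 9 members were called, against 10.4% of all genes in that setting.

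Because the members of a pair share much of their sequence, reads can be divided between them by the quantification, and the levels of single genes of a pair are uncertain. Of the 50-base stretches of Slc22a28 and Slc22a30, 53.9% and 51.8% also occur in another gene, mostly in each other, and for Slc22a27 and Slc22a29 the shares were 30.5% each. Sums over a pair depend little on how reads were divided within it, but stretches are shared across the pairs as well. Of 2222 such stretches of Slc22a29, 218 also occur in Slc22a30 and 118 in Slc22a28, and of 2103 of Slc22a27, 169 and 149 do. Division of reads between the pairs was not tested. Slc22a28 and Slc22a30 together had 56.3, 69.2 and 62.5 FPKM in the WT libraries (replicates 1 to 3) and 112, 89.2 and 99.0 FPKM in the TRIM24C52/55A libraries, which is 1.60-fold higher. Slc22a27 and Slc22a29 together had 9.55, 5.70 and 17.6 FPKM in the WT libraries (replicates 1 to 3) and 1.97, 0.798 and 1.82 FPKM in the TRIM24C52/55A libraries, with a WT mean 7.16 times the TRIM24C52/55A mean. Neither sum overlapped between the genotypes, which follows from the separation of both partners in the same direction.

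Within the pairs the shares moved less than the sums. Slc22a28 made up 17.4% ± 1.65 of its pair in WT and 22.2% ± 1.63 in TRIM24C52/55A livers (SD, n = 3 each), without overlap. Slc22a27 made up 60.8% ± 5.65 and 50.2% ± 2.86 of its pair (SD, n = 3 each), also without overlap. Since the rising pair is the more abundant, the sum of all 5 genes was higher in TRIM24C52/55A livers, at 101.7 ± 12.0 FPKM against 74.7 ± 7.48 FPKM in WT (SD, n = 3 each), 1.36-fold. The share of Slc22a26, Slc22a27 and Slc22a29 in that sum was 15.7%, 8.41% and 23.5% in WT replicates 1 to 3 and 1.77%, 0.927% and 2.13% in TRIM24C52/55A replicates 1 to 3.

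**Figure D3:**
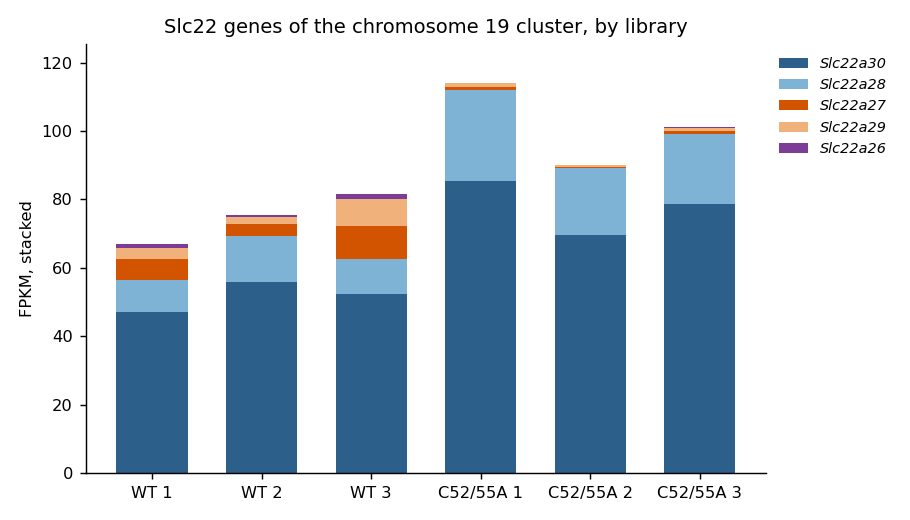
FPKM of the 5 chromosome 19 genes stacked for each of the 6 libraries. Slc22a30 and Slc22a28 (blue) fill most of every bar and are taller in the TRIM24C52/55A libraries, while Slc22a27, Slc22a29 and Slc22a26 (orange and purple) shrink from a mean of 15.9% of the bar to 1.61%.

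By level, the mean FPKM of the members in WT livers ran from Slc22a18 (78.7) and Slc22a30 (51.7) through Slc22a7 (18.7) and Slc22a23 (16.9), which overlapped, to Slc22a28 (10.9), Slc22a5 (10.8), Slc22a27 (6.50) and Slc22a29 (4.45), of which neighbours in the order overlapped, and to Slc22a26 (1.08). In TRIM24C52/55A livers Slc22a30 (77.8) stood above Slc22a18 (62.9), and the libraries of these genes did not overlap in either genotype. Slc22a28 (22.3) overlapped with Slc22a7 (21.3), both above Slc22a23 (13.6) and Slc22a5 (8.49), and Slc22a29 (0.766) and Slc22a27 (0.764) were alike. Slc22a30 and Slc22a18 thus changed places at the top of the members.

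Of the 9 other Slc22 genes listed in the files, 4 passed the filter, and the 3 described here were not chosen for how they moved. Slc22a3 (OCT3), a carrier of monoamines, fell from 1.58 ± 0.50 to 0.620 ± 0.156 FPKM (SD, n = 3 each), with a log2 fold change of -0.66 (limma adjusted p = 0.0427) and a call in 6 of 14 other settings, which was lost without WT replicate 1, WT replicate 3 or any single TRIM24C52/55A library. Slc22a15 was at 6.42 ± 0.399 FPKM in WT and 4.09 ± 1.1 FPKM in TRIM24C52/55A livers without overlap, but it was not called (log2 fold change -0.57, limma adjusted p = 0.0699, n = 3 each). It was called lower with TPM and without TRIM24C52/55A replicate 3 (limma adjusted p = 0.0403 and 0.0348). Slc22a4 (OCTN1), the ergothioneine carrier, was at 0.869 and 1.0 FPKM with overlapping groups (log2 fold change 0.12, limma adjusted p = 0.729). Slc22a8, Slc22a14, Slc22a17, Slc22a21 and Slc22a22 were too low to be tested.

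**Figure D4:**
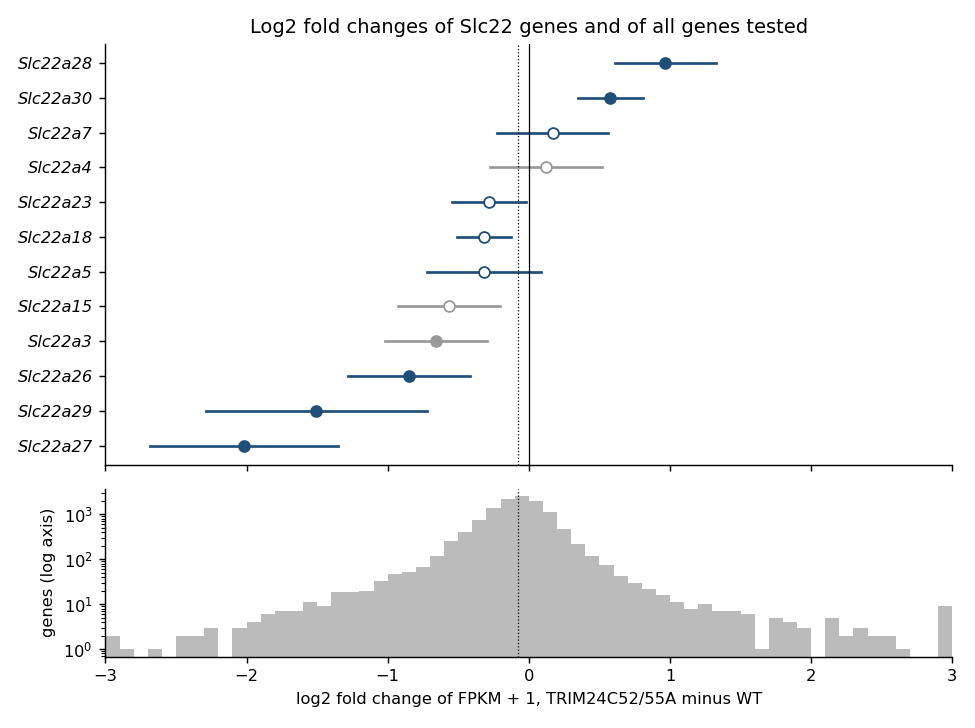
Upper panel, log2 fold changes of FPKM + 1 (TRIM24C52/55A minus WT) with 95% confidence intervals for the 9 members (blue) and 3 other Slc22 genes (grey), filled where called. Lower panel, number of genes by log2 fold change over all 12225 genes tested on a log axis, with values beyond 3 in the outermost bars and a dotted line at the median of -0.08. Slc22a27 and Slc22a29 lie in the lower tail, and Slc22a28 and Slc22a30 are the 2 called above 0.

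Other carriers of the hepatocyte membrane were followed as a list of 26 genes, of which 23 were tested. Of these, 3 were called higher (1.64% of all genes) and 5 lower (6.09% of all genes), and the median log2 fold change was -0.05 against -0.08 for all genes tested. Slco1a4 (OATP1A4), an uptake carrier of organic anions, fell from 11.3 ± 4.55 to 2.76 ± 1.86 FPKM (log2 fold change -1.75, limma adjusted p = 0.0251, n = 3 each). Slco1a1 (OATP1A1), of the same family, went the other way, from 58.2 ± 27.7 to 132 ± 13.1 FPKM (log2 fold change 1.26, limma adjusted p = 0.0301, n = 3 each). Abcc3 (MRP3), an efflux pump of the blood side, fell from 73.8 ± 9.23 to 30.7 ± 4.43 FPKM (log2 fold change -1.24, limma adjusted p = 0.00213), and Slc47a1 (MATE1), which exports organic cations, fell from 56.5 ± 3.78 to 34.3 ± 6.04 FPKM (log2 fold change -0.72, limma adjusted p = 0.0142). Like the Slc22 cluster, the OATP1A genes thus included close relatives that differed in opposite directions. Without WT replicate 1, WT replicate 3 or TRIM24C52/55A replicate 1, 2 of the list were called in each case (2.56%, 2.46% and 2.42% of all genes), and without WT replicate 2, 5 were (3.93%).

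Among 20 tested genes of a list of 23 transcription factors and hormone receptors of the hepatocyte, none was called higher and 2 were called lower, with a median log2 fold change of -0.02. The share of 2 in 20 is near the 7.72% called over all genes and is not a result about the list. Nr1i3 (CAR), the receptor that switches on drug-handling genes, fell from 120 ± 19.6 to 68.3 ± 7.95 FPKM (log2 fold change -0.80, limma adjusted p = 0.0127, n = 3 each). Cebpb, a factor of the acute phase and of gluconeogenesis, fell from 22.2 ± 4.76 to 11.3 ± 3.44 FPKM (log2 fold change -0.94, limma adjusted p = 0.0428, n = 3 each). Neither was called without WT replicate 1 (2.56% of all genes), and 1 gene of the list was without WT replicate 2 (3.93%), WT replicate 3 (2.46%) or TRIM24C52/55A replicate 1 (2.42%). Without TRIM24C52/55A replicate 3, 3 were called (6.48%), of which 1 was higher and 2 were lower. The factors whose motifs were searched above had log2 fold changes of 0.04 for Hnf4a, 0.15 for Stat5b and -0.25 for Stat5a, with limma adjusted p-values of 0.798, 0.572 and 0.466.

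Several liver carriers and enzymes differ between the sexes in mice, through the pattern of growth hormone release, and lists of known male-biased and female-biased liver genes were set beside the cluster. All 12 male-biased genes were tested and 11 were called higher in TRIM24C52/55A livers (1.64% of all genes), with a median log2 fold change of 1.61. Selenbp2 rose from 22.5 ± 10.8 to 685 ± 94.9 FPKM (log2 fold change 4.95, limma adjusted p = 8.52e-05, n = 3 each). Hsd3b5, a steroid dehydrogenase, rose by 4.31 on the log2 scale (limma adjusted p = 0.0176). Serpina1e, a protease inhibitor, and Cyp4a12b, a fatty acid hydroxylase, rose by 3.10 and 2.12 (limma adjusted p = 0.000386 and 0.00662). Of 16 female-biased genes 7 were tested, and 3 were called lower (6.09% of all genes) and none higher, with a median of -1.03. The other tested genes were not called, and 3 of the 7 had log2 fold changes above 0. Over all 16 genes, without the filter on low values, the median was 0.06. Without TRIM24C52/55A replicate 2, the library with the most adipocyte marker RNA, 2 were called lower and 1 higher, where 10.4% of all genes were called. Acot3, a peroxisomal thioesterase, fell by 2.21, Abcd2, a peroxisomal fatty acid transporter, by 1.34 and Hao2, a hydroxyacid oxidase, by 1.03 on the log2 scale (limma adjusted p = 0.00774, 0.00489 and 0.0421). Hao2 had a mean of 1.46 FPKM in WT and 0.148 FPKM in TRIM24C52/55A livers and passed the filter through the WT libraries, the group in which it is high.

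In WT mice, the library highest in Slc22a28 and Slc22a30 was also highest in 11 of the 12 male-biased genes, a list that includes Slco1a1, with Mup20 highest in WT replicate 1. Hsd3b5 had 2.79, 29.9 and 1.58 FPKM in the WT libraries (replicates 1 to 3), and Slco1a1 had 47.1, 89.7 and 37.8 FPKM. Both were highest in WT replicate 2, in which Slc22a26, Slc22a27 and Slc22a29 were lowest, while WT replicates 1 and 3 stood in the opposite order to that in Slc22a28 and Slc22a30. The lists were written with earlier results of these libraries known and serve as a description. Whether the sex-biased genes and the Slc22 cluster share a cause was not tested.

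**Figure D5:**
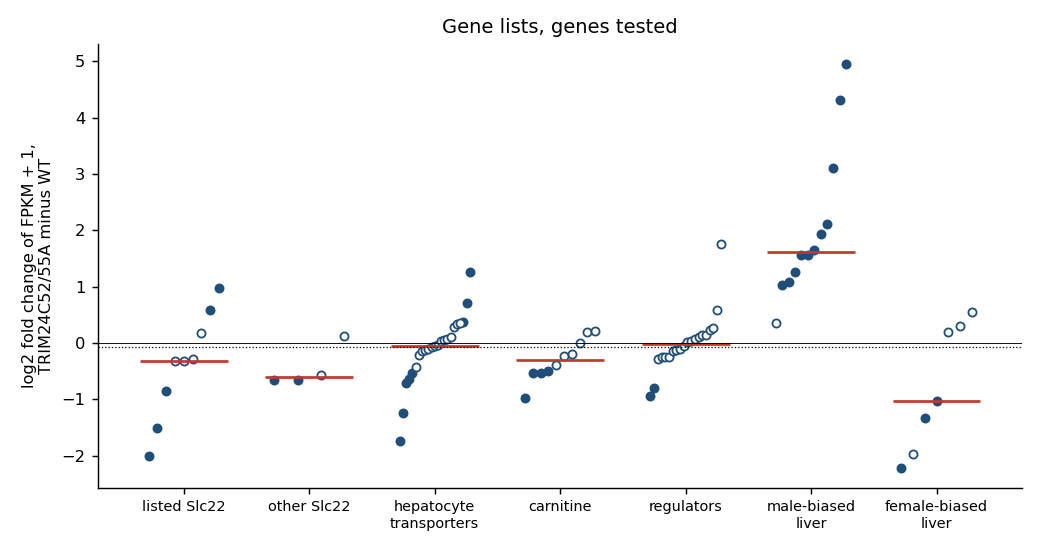
Log2 fold change of FPKM + 1 (TRIM24C52/55A minus WT) of each tested gene in the 9 members and 6 other lists, filled where called and open where not, with a red bar at the median of each list and a dotted line at the median of all genes. Members lie on both sides of 0, 11 of 12 male-biased genes are called above it, and the carnitine genes that were called are all below it.

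The genes whose levels over the 6 libraries were most like those of Slc22a27 were Ccdc91, Sytl4 and Cdc34 (Pearson r of log2(FPKM + 1) of 0.997, 0.996 and 0.995). Sytl4, a synaptotagmin-like protein of vesicle release, had 1.22, 0.942 and 1.64 FPKM in the WT libraries (replicates 1 to 3) and 0.414, 0.241 and 0.487 FPKM in the TRIM24C52/55A libraries. It thus followed Slc22a27 also in being lowest in replicate 2 of each genotype. The genes most like Slc22a28 were AI182371, Adh6-ps1 and Aox3 (r of 0.996, 0.994 and 0.991). Aox3, an aldehyde oxidase of the liver, had 90.8, 124 and 103 FPKM in the WT libraries (replicates 1 to 3) and 276, 188 and 230 FPKM in the TRIM24C52/55A libraries. These correlations are over 6 libraries that share the contrast of genotype, were the highest of 12225 genes, and are given as a description.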

How the data were processed

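RNA-Seq was done on total RNA of the liver of 3 WT and 3 TRIM24C52/55A mice on the HFD, and libraries were grouped by the genotype in their labels. The authors deposited 1 table of FPKM per library. Per the labels, the submitters' processing notes name the build GRCm38 and the tools bcl2fastq, Salmon 0.14.0 and DESeq2 1.30.0. Which tool gave the FPKM is not given in the sources used here, and reads shared by near-copies may have been divided by it.

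A gene absent from a table was set to 0. FPKM is not a count, so log2(FPKM + 1) was fitted with limma 3.58.1 in R 4.3.3 (mean-variance trend, no covariate) over the 12225 genes that averaged 0.5 FPKM or more, with Benjamini-Hochberg adjustment and a threshold of 0.05. The fit was tested on simulated data. Depth was estimated from FPKM multiplied by transcript length, for genes with 1 transcript of over 800 bases in GENCODE M21. The median of the values within a preset range, the same for every library, was taken as the worth of 1 fragment. All fragment numbers given here rest on that range. Of 21528 gene IDs, 21454 were found in GENCODE M21. The labels name replicates without saying more, so p-values measure the spread between these libraries. Sequences came from GENCODE M21 transcripts and RefSeq promoters and were aligned with Biopython 1.88.

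The members and all lists of genes were chosen with earlier results of these data known. Named were all members, other Slc22 genes past the filter (1 is not reported here), nearest neighbours, the 4 called genes of each list with the largest change, and the 3 genes most like Slc22a27 and Slc22a28. Hnf4a, Stat5a, Stat5b, Slc22a21 and the values of single libraries for Hsd3b5 and Slco1a1 were added after their values were seen. Alternatives were a pseudocount of 0.1, no filter, a mean of at least 1 FPKM, TPM, median-of-ratios and quantile scaling, no trend, the replicate block and leaving out each library.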

Additional observations from a re-analysis of the deposited data

How the results depend on the processing

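Without the filter on low values (21528 genes) 347 genes were called in place of 944, and of the lists 1 member in place of 5, 1 other Slc22 gene in place of 2, 2 hepatocyte transporters in place of 8, 1 carnitine gene in place of 4, 0 regulators in place of 2 and 7 male-biased genes in place of 11. TPM gave 1555 genes (197 higher and 1358 lower, against 200 and 744), median-of-ratios scaling 660 (249 and 411) and quantile scaling 633 (255 and 378). With quantile scaling 2 carnitine genes were called, and with median-of-ratios or quantile scaling 1 other Slc22 gene and 1 regulator. Without the mean-variance trend 1 regulator was called. Leaving out 1 library gave 296 genes (without TRIM24C52/55A replicate 1) to 1272 (without TRIM24C52/55A replicate 2), 2 to 5 members, 1 to 2 other Slc22 genes, 2 to 9 hepatocyte transporters, 0 to 4 carnitine genes and 0 to 3 regulators. The sign of the log2 fold change of all 9 members was the same in every setting in which they were fitted. For Slc22a7 without TRIM24C52/55A replicate 3 that value was only 0.0016, and the ratio of the TRIM24C52/55A to the WT mean was 0.991. Slc22a4 turned from 0.12 to -0.035 without WT replicate 2, and its range without 1 library was -0.035 to 0.30. The medians of the hepatocyte transporters and regulators turned to 0.03 and 0.08 with median-of-ratios scaling and to 0.05 and 0.10 with quantile scaling. Without the filter the medians of the female-biased genes, other Slc22 genes and regulators turned to 0.06, 0.01 and 0.01. That of the transporters turned to 0.02 without WT replicate 3, and that of the regulators to 0.03 without WT replicate 2 or TRIM24C52/55A replicate 1. Slc22a26 was not fitted with a mean of at least 1 FPKM. The cause of these changes was not tested.

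Replicate numbers are shared by both genotypes in the labels. Deviations from the group mean correlated at -0.12, -0.10 and 0.003 between same-numbered libraries. Between differently numbered libraries they correlated at -0.05 to 0.14, so no pairing by number was seen. A weak pairing could have been missed, because deviations of 3 libraries from their own mean are not independent. With the replicate block 578 genes, 5 members and 1 regulator were called.

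Limits of depth fall most on Slc22a26, at an estimated 1.14 to 10.7 fragments per TRIM24C52/55A library. Slc22a27 and Slc22a29 also rest on few reads there, an estimated 13.9 to 32.4 and 14.2 to 38.2 fragments per library. With 3 libraries per genotype, an exact permutation test of 1 gene cannot go below p = 0.1.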
